A study of Mus musculus with 40 samples.

Results

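Osteocrin (Ostn) is a small secreted peptide, also called musclin, that is known from bone and skeletal muscle and that belongs to the natriuretic peptide system. The 7 genes described here are the ligands Ostn, Nppa, Nppb and Nppc and the receptors Npr1, Npr2 and Npr3. They were chosen by name, as the probes whose gene name equals a listed member, and each is represented by 1 probe, giving 7 of the 30728 gene names on the array. The list was drawn up because of the values of Ostn in the aged cerebellum, so those values are given as a description without a test.

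Expression was measured in the cortex and the cerebellum of mice on 40 one-colour Agilent arrays, with 4 arrays in each of 10 groups. Each region had 3 groups of wild-type mice, young (2 months) with normal feed, aged (29 months) with normal feed and aged with deficient feed. The other 2 groups were aged Ttpa-/- mice given deficient or supplemented feed, also 29 months old. The normal diet held 36 mg and the supplemented diet 600 mg of α-tocopherol (vitamin E) per kg. The product of Ttpa is the transfer protein that keeps α-tocopherol in the circulation, and mice without it are used as a model of vitamin E deficiency. The deletion is present in every cell of the animal, no Ttpa-/- mice on the normal diet and no young Ttpa-/- mice are among the groups, and all aged groups are 29 months old.

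The products of Nppa (atrial natriuretic peptide) and Nppb (brain natriuretic peptide) bind the receptor encoded by Npr1, and the C-type peptide from Nppc binds that encoded by Npr2. Both receptors are guanylate cyclases that make cyclic GMP when they are occupied. The receptor encoded by Npr3 has no cyclase domain; it takes up the peptides and clears them, and it couples to inhibitory G proteins. Osteocrin resembles the natriuretic peptides in part of its sequence and binds the Npr3 receptor, so that it competes with their clearance. C-type peptide is the main member of the family made in brain, and in primate neurons OSTN is known as a gene induced by activity through MEF2 factors.

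The probes of Ostn, Nppb and Npr1 are shown because the results turn on the first and because the other two were near background. They are written 5′ to 3′ as deposited. In the Ostn probe the capitals mark bases 31 to 54, whose codons start with phenylalanine and glycine and end with aspartate, arginine and isoleucine, which are residues of the ring that natriuretic peptides share.
Ostn: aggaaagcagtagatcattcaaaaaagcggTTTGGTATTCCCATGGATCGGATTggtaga
Nppb: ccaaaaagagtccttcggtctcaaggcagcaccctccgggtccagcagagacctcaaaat
Npr1: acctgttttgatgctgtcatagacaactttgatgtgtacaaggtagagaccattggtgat
The Ostn probe lies at chr16:27324816-27347014 of mm9. Its 60 bases span 22199 bases of the genome, so it crosses a splice junction and reports spliced transcript. The Npr1 probe, at chr3:90259171-90259664 on the minus strand, spans 494 bases and also crosses a junction. The Nppb probe is at chr4:147360489-147360548, and the Nppa probe starts 15535 bases from it on the same chromosome. The probes of Nppc, Npr2 and Npr3 lie on chromosomes 1, 4 and 15.

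The arrays had a 75th percentile intensity of 365 to 925, 51.4% to 61.4% of probes were well above background, and arrays of 1 group correlated at 0.973 to 0.993 across probes. Signals are given as log2 intensity relative to the array's 75th percentile, and a probe counts as measured on an array where the scanner software marked it well above background. Of 8 cerebellar markers, 8 were above background on all 4 arrays of every cerebellar group, and the summed linear signal of the list was 413.2 to 594 in the cerebellum and 4.377 to 6.008 in the cortex. The brighter of 2 Ttpa probes was measured on all 4 arrays of the 3 wild-type groups in the cerebellum, on 0 of 4 in Ttpa-/- mice on the deficient diet and on 1 of 4 on the supplemented diet. In the wild-type cortex it was above background on at most 1 of 4 arrays, so the genotype could not be checked there. Each group lay on 1 of 5 slides. Young and aged normal-diet cortex shared a slide, as did the 2 wild-type aged cerebellar groups of different diet and the 2 Ttpa-/- cerebellar groups. The deficient-diet wild-type cortex also shared a slide with the supplemented Ttpa-/- cortex, but this pair differs in both genotype and diet and was not compared. In all other comparisons made here slide and condition cannot be told apart.

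Ostn was measured in the cerebellum of every aged mouse and in no cortex. In the cerebellum of young wild-type mice its log2 signal was -5.76, -4.08, -7.12 and -5.67 on the 4 arrays, and 1 of these, the second, was above background. In aged normal-diet wild-type mice it was -0.94, -1.31, -1.09 and -0.88, above background on 4 of 4 arrays. The young and aged arrays did not overlap, and the young arrays spread far more (SD 1.25) than the aged ones (SD 0.191).

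The mean difference was 4.61 on the log2 scale, from -5.66 to -1.05. Leaving out 1 array at a time gave 4.12 to 5.13. Since 3 of 4 young arrays were not above background, this number depends on how background is treated, and it was 2.25 with the normexp correction. In that comparison 5.03% of probes passed the threshold of adjusted p below 0.05 with a fold change above 1.5, and groups did not overlap for 19.1%. Age and slide cannot be told apart for these 2 groups.

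Ostn was high under every diet and genotype at 29 months. On the deficient diet wild-type cerebellum gave -1.07, -1.11, -1.67 and -1.01. Ttpa-/- cerebellum gave -1.80, -1.57, -1.62 and -1.65 on the deficient diet. On the supplemented diet Ttpa-/- cerebellum gave -1.47, -1.16, -1.52 and -0.72. The 16 aged cerebellar arrays thus ran from -1.80 to -0.72 with a median of -1.23.

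In order, the group means were -1.05 ± 0.191 (SD, n = 4) in wild-type mice on the normal diet, -1.22 ± 0.304 in wild-type mice on the deficient diet, -1.22 ± 0.368 in Ttpa-/- mice on the supplemented diet, and -1.66 ± 0.101 in Ttpa-/- mice on the deficient diet. The first 3 overlapped one another and did not differ beyond their spread. The diet difference in wild-type mice, measured within 1 slide, was -0.16, and it was -0.247 to -0.012 with 1 array left out, the smallest without array 3 of the deficient diet, at -1.67.

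Ttpa-/- mice on the deficient diet were the lowest of the aged groups. Their Ostn signal differed by -0.61 from wild-type mice on the normal diet, without overlap (17% of probes did not overlap there), and by -0.44 from wild-type mice on the same diet, with overlap. Against the supplemented diet, on the same slide, the Ttpa-/- groups differed by 0.44 (supplemented minus deficient) and did not overlap, as was the case for 5.34% of probes. The gap in that last pair was narrow, from -1.57 to -1.52. Without array 4 of the supplemented diet, at -0.72, the difference was 0.273, the lowest with 1 array left out.

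**Figure D1:**
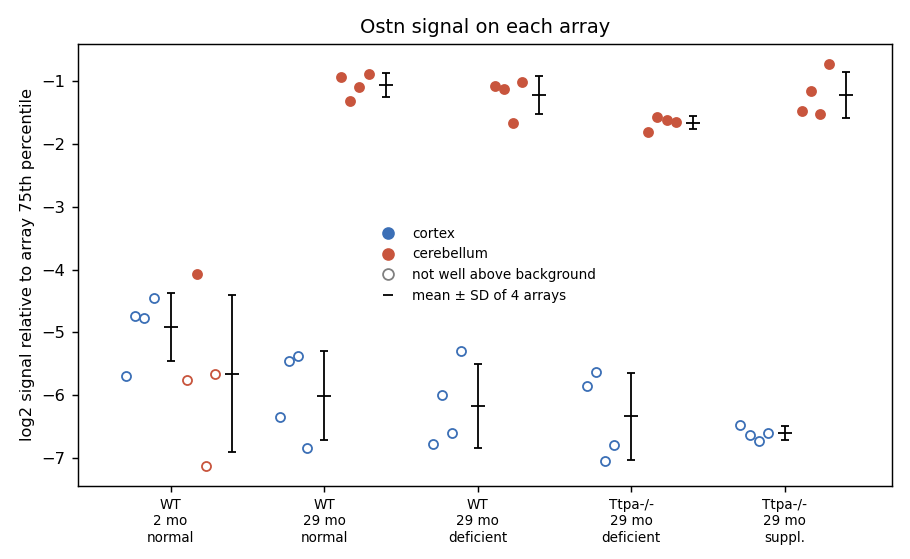
Ostn log2 signal relative to the array's 75th percentile on each of 40 arrays, by group, with filled points well above background, open points not, and bars for the mean ± SD of 4 arrays. The 16 aged cerebellar arrays lie between -1.80 and -0.72, and all 20 cortical points are open.

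In the cortex Ostn was above background on 0 of 20 arrays, with log2 signals from -7.06 to -4.45. No difference between cortical groups was tested for that reason. Among mice of the same age, genotype and diet, the aged cerebellum was at least 8.22-fold to at least 10.37-fold higher than the aged cortex over the 4 aged conditions. These bounds set the cortex at the lowest signal among measured probes. The arrays hold RNA of whole tissue, so fewer cells expressing a gene and less RNA per cell cannot be told apart.

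The known sources of osteocrin were looked at in the same arrays. Of 10 skeletal muscle markers, 2 were above background on all 4 arrays of the young and 3 on all 4 of the aged normal-diet cerebellum, while 6 and 5 were on none. Acta1 and Actn3, a skeletal actin and a muscle actinin, were measured on 4 of 4 arrays in both groups and Tnnt3, a troponin, on 3 of 4 young and 4 of 4 aged arrays. The creatine kinase Ckm, Mylpf, Myot and the myosins Myh1 and Myh2 were above background on 0 of 4 arrays in both groups. The summed signal of 10 muscle markers was 0.4117 to 0.5176 in the young and 0.4151 to 0.48 in the aged group. Of 8 bone markers 5 were above background on all 4 arrays in both groups, namely Dmp1, Alpl, Phex and the collagens Col1a1 and Col1a2, and the list summed to 9.328 to 10.71 and to 8.938 to 16.54. Osteocalcin (Bglap) was measured on 2 of 4 young and 3 of 4 aged arrays, Ibsp, bone sialoprotein, on 0 of 4 and 2 of 4, and Sp7, the osteoblast transcription factor, on 0 of 4 in either group. With age 1 of 3 tested muscle markers rose and 1 fell, and 1 of 5 tested bone markers rose, where 5.03% of all probes were called. The part of these tissues in the Ostn difference was not tested.

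Microglial markers were higher with age in the cerebellum, and choroid plexus markers varied widely among the young arrays. All 8 microglial markers were measured in both groups, 6 of 8 rose and 0 fell, where 5.03% of all probes were called in either direction, and their sum was 87.89 to 95.95 in the young against 109.6 to 124.6 in the aged. Of the T cell markers, 2 of 3 tested rose. The sum of 8 meningeal and fibroblast markers was 14.75 to 16.8 in the young and 17.94 to 21.13 in the aged. Of these 8, 0 were called higher and 1 lower. Of 8 mural and endothelial markers 0 were called in either direction. The choroid plexus sum was 250.2, 33.17, 12.14 and 8.952 on the 4 young arrays and 6.343 to 7.29 in the aged, with 2 of 8 tested markers lower. The young array richest in choroid plexus markers had an Ostn signal of -5.76, and the young array with the measured Ostn signal was the second. The part of these cells in the Ostn difference was not tested.

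The 5 genes whose pattern was most like that of Ostn were sought among 20640 gene symbols, by the root mean square difference over the 20 cerebellar arrays after centring each probe. They were Cxcl10 (0.558), Lilrb4 (0.618), Clec7a (0.627), Ccl3 (0.636) and B430306N03Rik (0.665). Cxcl10 and Ccl3 encode chemokines, Clec7a the beta-glucan receptor dectin-1, and Lilrb4 an inhibitory receptor of myeloid cells. All were low in the young group and high in the 4 aged groups, which is the pattern that defined the search.

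In the aged wild-type cortex (normal diet), Cxcl10, Lilrb4, Clec7a and Ccl3 were above background on 4 of 4 arrays, B430306N03Rik on 2 of 4 and Ostn on 0 of 4. Aged minus young cortex differed by 2.45 for Cxcl10 and by 3.96 for Clec7a, measured on 4 and 3 of the 4 young arrays. For Ccl3 the difference of 3.02 rests on a young group with 1 of 4 arrays above background. Lilrb4 was above background on 0 of 4 young arrays, so that the aged cortex was at least 7.78-fold higher. B430306N03Rik was also on 0 of 4 young arrays, with a bound of 1.63-fold. Its aged array 4, at -4.706 and not above background, lay below young arrays at -4.399 and -4.495. That bound therefore does not establish a difference. These values are descriptive, as the genes were picked for their likeness to Ostn in the cerebellum alone.

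**Figure D2:**
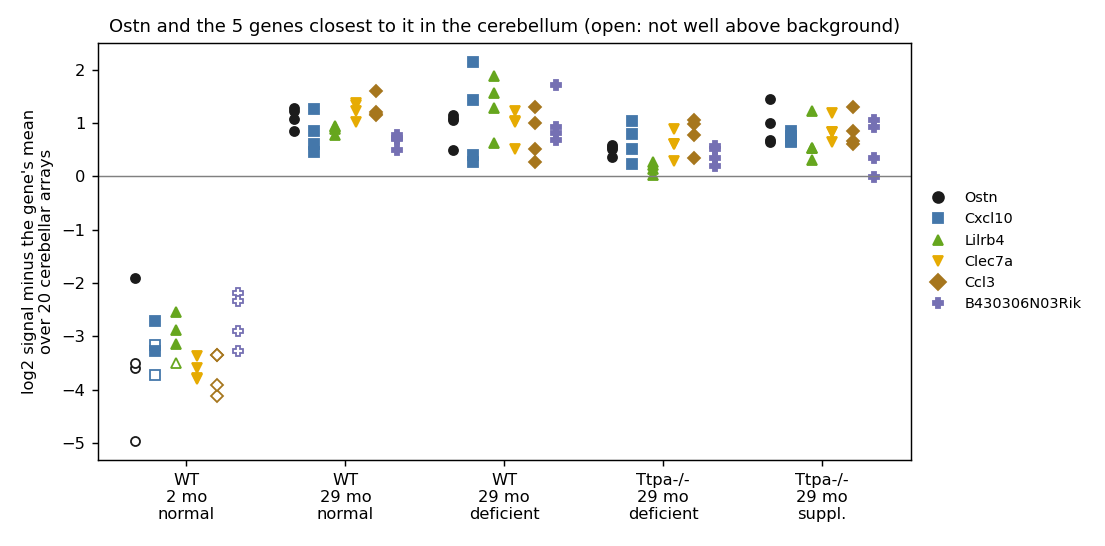
Log2 signal of Ostn and of the 5 genes closest to it, each centred on its own mean over the 20 cerebellar arrays, by group. Filled points are well above background and open points are not; the points of the young group lie below zero for all 6 genes and nearly all of those of the aged groups lie above it.

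Among the other ligands, Nppa was low but measured throughout, on 20 of 20 arrays in each region, from -3.84 to -2.90 in the cortex and from -4.34 to -3.24 in the cerebellum. It is printed in 8 to 10 usable spots per array, whose SD within an array was 0.116 to 0.356. In the cortex of Ttpa-/- mice on the deficient diet it gave -2.98, -3.12, -2.90 and -3.25, and in aged normal-diet wild-type mice -3.48, -3.62, -3.44 and -3.64. The groups did not overlap, as for 23.4% of probes. Wild-type cortical arrays of other groups reached into the Ttpa-/- range, with -3.105 on the deficient diet and -3.159 in young mice above the lowest Ttpa-/- array at -3.246.

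This difference of 0.48 (SE 0.148, limma adjusted p = 0.02104) lay below the fold change of 1.5, so Nppa was not called. It lost its adjusted p with the normexp correction, where it was 0.199 (adjusted p = 0.1511), and without any of 4 of the 8 arrays, arrays 2 and 4 of the wild-type and arrays 1 and 3 of the Ttpa-/- group, with adjusted p from 0.05067 to 0.07664. The supplemented diet in Ttpa-/- mice gave -3.84, -3.40, -3.28 and -3.41, again without overlap (19% of probes), with a difference of -0.42 (supplemented minus deficient, adjusted p = 0.05297). The difference between the 2 genotypes on the deficient diet was 0.27 (adjusted p = 0.2351). In the cerebellum the Ttpa-/- groups did not stand apart, and Nppa differed by -0.11 (adjusted p = 0.6806) between Ttpa-/- mice on the deficient diet and wild-type mice on the normal diet.

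The 2 regions differed by -0.60 in this effect of Ttpa loss with the deficient diet (cerebellum minus cortex, adjusted p = 0.0774), and 0 of 5 members tested passed where 7.05% of probes did. That test passed with quantile normalization (-0.645, adjusted p = 0.004163) and without array 4 of the cortex of Ttpa-/- mice on the deficient diet (-0.657, adjusted p = 0.04629). The Ttpa-/- cortex on the deficient diet lay on a slide with no other cortical group, so slide and condition cannot be told apart.

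Nppb was near background. It was above background on 5 of 20 cortical arrays, 4 of them in Ttpa-/- mice on the deficient diet, and on 12 of 20 cerebellar arrays. The 4 cortical arrays of that group read -3.98, -4.47, -4.23 and -4.10. Aged wild-type cortex read -5.13, -4.24, -4.03 and -4.92 on the normal diet and was above background on 0 of 4 arrays. The groups overlapped, and the unmeasured wild-type signals of -4.24 and -4.03 lay above the measured Ttpa-/- signal of -4.47. The bounds of 1.05-fold against the normal diet and 1.16-fold against the wild-type deficient diet therefore do not establish a difference. Adjusted p was 0.3225 and 0.4883 in limma, and Nppb entered these tests only through the Ttpa-/- group.

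Nppc, the ligand of Npr2, was measured on 20 of 20 arrays in both regions and no comparison reached an adjusted p under 0.05. It ranged from -0.998 to -0.278 in the cortex and from -0.651 to 0.27 in the cerebellum. With age it differed by 0.24 in the cerebellum (95% interval -0.02 to 0.497, adjusted p = 0.2686) and by -0.10 in the cortex (-0.362 to 0.156, adjusted p = 0.8041). In Ttpa-/- mice on the deficient diet the differences from aged normal-diet wild-type mice were -0.26 in the cortex and 0.19 in the cerebellum, with adjusted p of 0.1512 and 0.3614.

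Of the receptors, Npr1 was not well above background on any of 20 cortical arrays and was above it on 4 of 20 cerebellar arrays, spread over 3 groups. No comparison of Npr1 could be tested. Its signals had a median of -5.19 in the cerebellum (-6.69 to -4.11) and -6.41 in the cortex (-6.80 to -5.57), and both lie at the level where the scanner software did not separate the probe from background.

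Npr2 was bright on every array and varied little. In the cortex it read 1.87, 1.85, 1.79 and 1.97 in young wild-type mice and 1.90, 1.85, 1.80 and 1.91 in aged ones. Wild-type mice on the deficient diet gave 1.89, 1.91, 1.70 and 2.00. The highest cortical group was Ttpa-/- on the deficient diet, with 2.33, 2.16, 2.11 and 2.06.

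All 4 arrays of that group lay above every array of the 3 wild-type cortical groups. The difference was 0.30 from the normal diet (SE 0.073, adjusted p = 0.004257) and 0.29 from the same diet in wild-type mice (adjusted p = 0.008888). With the supplemented diet Ttpa-/- cortex read 1.86, 2.04, 1.93 and 1.93, a difference of -0.23 from the deficient diet (adjusted p = 0.03409). Groups did not overlap in these 3 comparisons, where 23.4%, 17.2% and 19% of all probes did not overlap either. None reached the fold change of 1.5, and with only the groups compared in the fit the adjusted p rose to 0.06267, 0.1505 and 0.1624. The second also missed 0.05 without array 3 of the wild-type group (0.05078) or array 1 of the Ttpa-/- group (0.05903), and the last without any of 6 of its 8 arrays, with adjusted p up to 0.1784. Each of these comparisons runs across slides. In the cerebellum the same effects of Npr2 were 0.09, 0.16 and 0.06, with adjusted p of 0.4736, 0.1448 and 0.8743.

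Npr3, the clearance receptor that osteocrin binds, was called between regions at both ages, in the direction opposite to that of aged Ostn. In young wild-type mice the cortex read -0.95, -1.22, -1.16 and -1.76 and the cerebellum -3.34, -5.28, -5.57 and -4.14, array 2 and array 3 not above background. In aged mice the cortex read -0.92, -1.13, -1.10 and -0.95 and the cerebellum -3.61, -4.02, -3.87 and -3.43. Every one of the 20 cortical arrays (-1.76 to -0.404) lay above every one of the 20 cerebellar arrays (-5.57 to -2.32).

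The cortex exceeded cerebellum by 3.31 at 2 months (SE 0.322, adjusted p = 1.172e-10) and by 2.71 at 29 months (adjusted p = 1.152e-08). It was 1 of 4 and 1 of 5 members tested that were called, where 38.4% and 33.6% of all probes were. With the normexp correction the differences were 1.89 and 1.75. On the 1 slide that held both regions, cortex of Ttpa-/- mice on the deficient diet read -1.26 to -0.87 beside the young cerebellar values above. Of the other members, Npr2 differed by -0.26 and -0.35, lower in the cortex, with adjusted p of 0.002266 and 0.0001391 and Nppa was higher by 0.37 at 2 months (adjusted p = 0.02938, and 0.05203 to 0.1171 without any of 4 of the 8 arrays), all below a fold change of 1.5. These too did not overlap between regions, which held for 58.1% of probes at 2 months and 56.4% at 29 months.

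**Figure D3:**
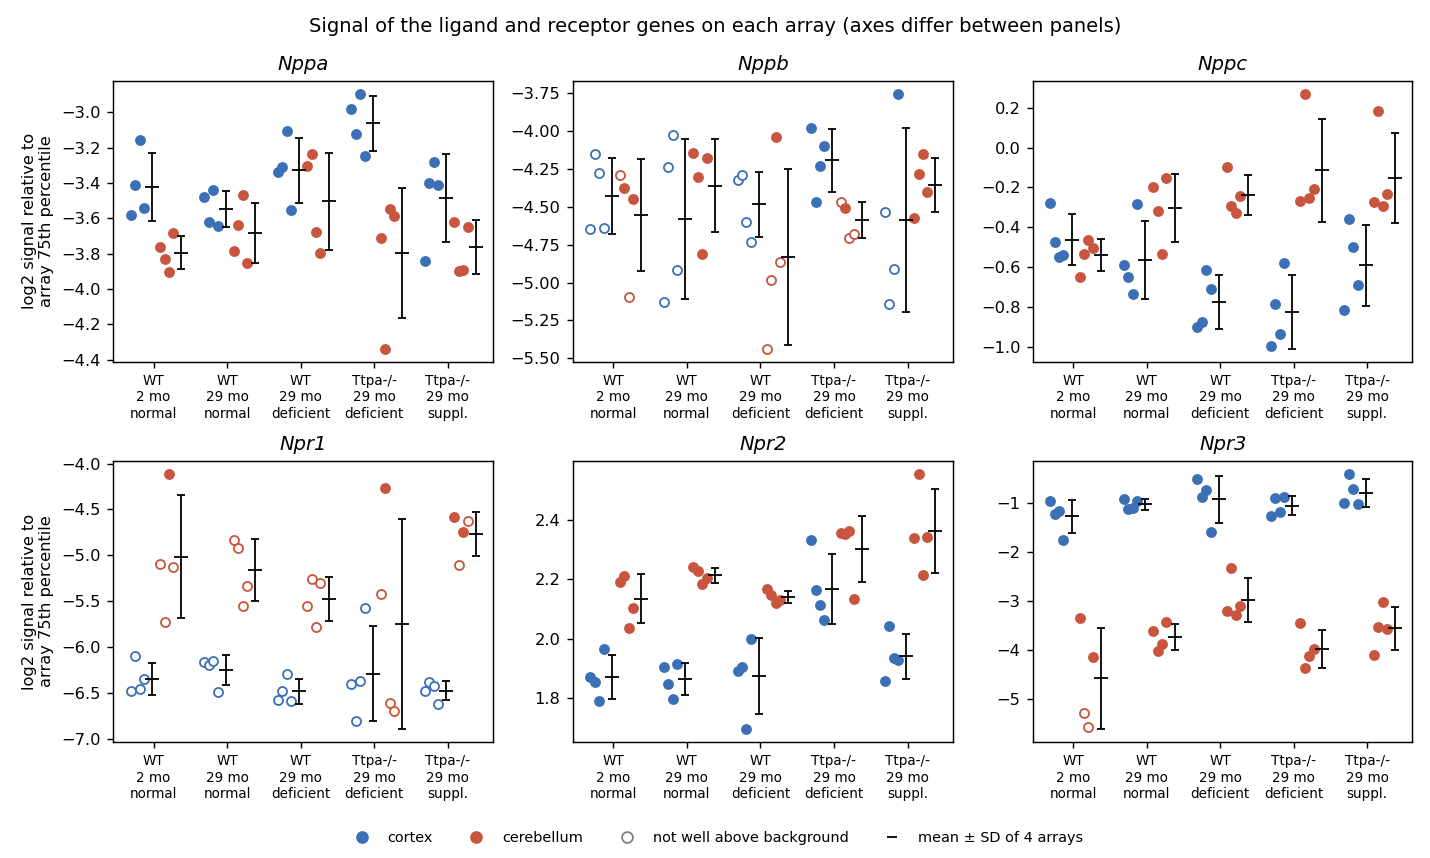
Log2 signal relative to the array's 75th percentile of Nppa, Nppb, Nppc, Npr1, Npr2 and Npr3 on each of 40 arrays, by group and region; open points are not well above background, bars are mean ± SD of 4 arrays and vertical axes differ. Npr3 separates the regions, with cortex from -1.76 to -0.404 and cerebellum from -5.57 to -2.32, and Npr1 is open on all cortical arrays.

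Within a region, Npr3 gave the single call among 47 tests of members. In wild-type cerebellum on the deficient diet it read -3.21, -2.32, -3.29 and -3.10. In Ttpa-/- mice on that diet it read -3.44, -4.37, -4.13 and -3.98. The groups did not overlap, as for 13.5% of probes, and the nearest arrays were at -3.29 and -3.44.

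Npr3 fell by 1.001 in Ttpa-/- mice on the deficient diet (SE 0.322, 95% interval -1.66 to -0.346, adjusted p = 0.03634). That was 1 of 4 members tested in a comparison where 4.96% of probes were called. The call was lost with quantile normalization (-0.854, adjusted p = 0.05413), with the normexp correction (-0.507), without a filter on dim probes, with only the groups compared, and without any of 5 of the 8 arrays, arrays 1 and 2 of the wild-type group and arrays 2, 3 and 4 of the Ttpa-/- group. Without array 2 of the wild-type group the difference was -0.781 (adjusted p = 0.1463). The 2 groups were on different slides.

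The wild-type group on the deficient diet was the highest in the cerebellum. Against the normal diet, on the same slide, Npr3 was higher by 0.75 (95% interval 0.099 to 1.41, adjusted p = 0.1687), with no overlap, which 16.8% of probes also showed, and it was not called. Against wild-type mice on the normal diet, Ttpa-/- mice on the deficient diet differed by -0.25 (adjusted p = 0.6733). On the supplemented diet Ttpa-/- mice read -4.09, -3.54, -3.02 and -3.58, a difference of 0.42 from the deficient diet (adjusted p = 0.7072).

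With age Npr3 differed by 0.85 in the cerebellum (95% interval 0.193 to 1.5, adjusted p = 0.08902) and by 0.25 in the cortex (adjusted p = 0.8185). The cerebellar groups overlapped through young array 1, at -3.34, and without that array the difference was 1.26 (adjusted p = 0.004647) and passed. That pass rests on signals at background, since young arrays 2 and 3, at -5.28 and -5.57, were not above it. Over the other settings and with 1 array left out the difference ran from 0.277 to 1.262. Young array 1 also had the highest choroid plexus sum, 250.2, and the part of that tissue was not tested. The difference between regions in the effect of age was 0.60 (adjusted p = 0.713), and 0 of 5 members tested passed, against 1.83% of probes.

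**Figure D4:**
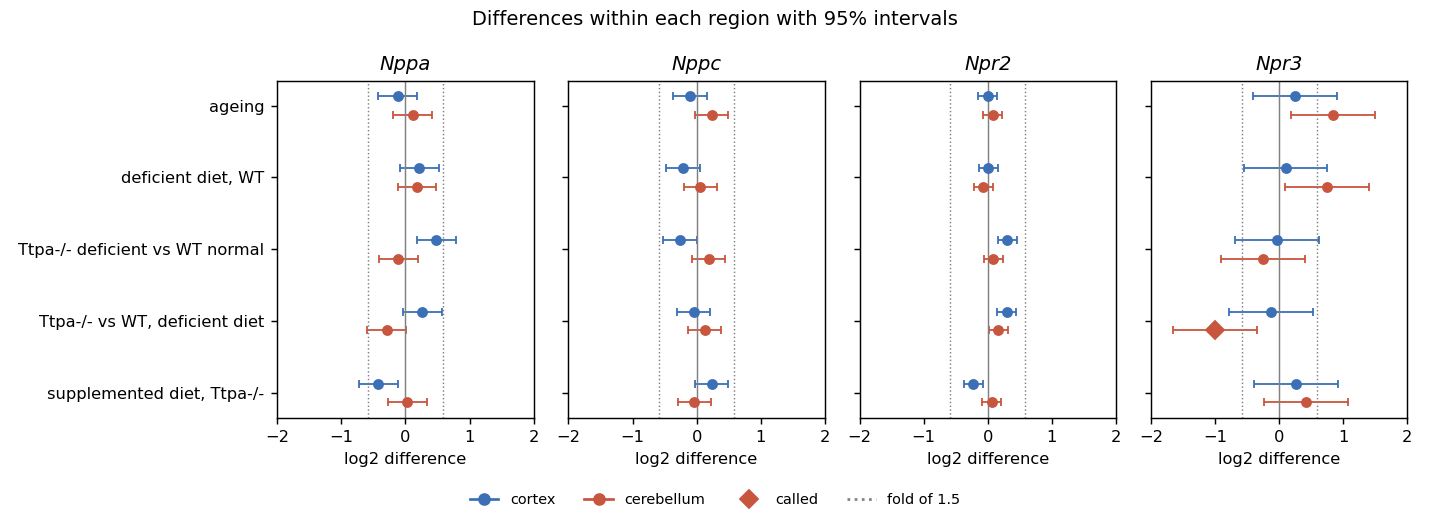
Log2 differences with 95% intervals for Nppa, Nppc, Npr2 and Npr3 in 5 comparisons within the cortex and the cerebellum; dotted lines mark a fold change of 1.5 and a diamond marks a call. The only diamond is Npr3 in the cerebellum of Ttpa-/- against wild-type mice on the deficient diet, at -1.001.

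In limma, 0 members were called with age in the cortex, where 2.1% of probes were called, and 0 with the deficient diet in wild-type cortex (0.223%) or wild-type cerebellum (1.28%). None was called in Ttpa-/- cortex on the deficient diet (4.76% against the wild-type normal diet, 3.07% against the wild-type deficient diet) or on the supplemented diet (3.31%). In the cerebellum none was called in Ttpa-/- mice on the deficient diet against the wild-type normal diet (4.46%) or on the supplemented diet (0.343%). Across the 47 tests 5 had an adjusted p under 0.05 and 10 an unadjusted p under 0.05. The percentages above also require the fold change and do not apply to these counts. The share of all probes at p alone was not computed, so nothing is read from them.

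The rest of the natriuretic and cyclic GMP pathway was examined as 45 genes on the array. Of the enzymes that process the peptides, Corin and Pcsk6 were higher in the cerebellum. Corin, which cuts the precursor of atrial natriuretic peptide, was above background on 4 of 4 cerebellar arrays and 0 of 4 cortical arrays at both ages. Its cerebellar signal was at least 4.46-fold higher at 2 months and at least 3.44-fold higher at 29 months. These bounds carry no p-value, since the cortical signals lie at background. Pcsk6, a convertase that activates corin, differed by -3.19 and -2.45 on the log2 scale, cortex minus cerebellum (adjusted p = 8.235e-21 and 1.228e-17). Furin, which cuts the precursors of the other 2 peptides, differed by -0.61 at 2 months (adjusted p = 1.02e-05). At 29 months it differed by -0.48 (adjusted p = 0.0003301), below the fold threshold, and was not called.

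Of the degrading enzymes, Mme went the other way in young mice and Ide did not pass. Mme, or neprilysin, was above background on 4 of 4 young cortical arrays and on 0 of 4 young cerebellar arrays. The young cortex was at least 2.51-fold higher, a bound without a p-value. At 29 months Mme was above background on 2 of 4 cortical and 0 of 4 cerebellar arrays and was not tested. Ide, the insulin-degrading enzyme, differed by -0.48 between young cortex and cerebellum (adjusted p = 0.0494), below the fold threshold. In all, 21 of 39 tested pathway genes were called between regions at 2 months and 18 of 38 at 29 months, where 38.4% and 33.6% of all probes were.

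Within a region few pathway genes passed. Pcsk6 rose with age in the cortex by 0.60 (adjusted p = 0.002434), 1 of 37 tested, where 2.1% of all probes were called. In the cortex of Ttpa-/- mice on the deficient diet 2 genes were called against aged normal-diet wild-type mice, where 4.76% of all probes were. Ide fell by 0.66 (adjusted p = 0.02667) and Cngb1, a subunit of cyclic nucleotide-gated channels, rose by 0.63 (adjusted p = 0.001018). Cngb1 has 3 probes, of which 1 was tested in this comparison, and their differences ran from -0.45 to 0.662. The wild-type arrays of Ide were split, at 1.626, 1.577, 0.909 and 0.603, against 0.494 to 0.554 in the Ttpa-/- group. In wild-type mice Ide differed by -0.576 with the deficient diet (adjusted p = 0.1757) and by -0.084 between genotypes on that diet (adjusted p = 0.8317). In the cerebellum Pde1a, a calmodulin-dependent phosphodiesterase, was the single gene of 38 that rose with age, each gene being represented by its brightest probe. It rose by 0.77 (adjusted p = 1.678e-05), where 5.03% of all probes were called. The count of genes was 2 without array 3 of the young or array 2 of the aged group. It was 3 without array 4 of the young group. Of the 3 probes of Cngb1, 2 were tested and 1 that was not the brightest was called. Their differences ran from -0.175 to 1.531.

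The cortical calls were fragile. The count with age went to 0 with the normexp correction, with only the groups compared, and without array 2 or 3 of the young or array 1 or 2 of the aged cortex, and the 2 calls in Ttpa-/- cortex went to 0 with the normexp correction and without array 1 of that group. With 1 of the other arrays left out these counts were 1 to 2 and 1 to 3.

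In the cerebellum of Ttpa-/- mice on the deficient diet, against wild-type mice on the normal diet, 3 of 38 genes fell and 1 rose, where 4.46% of all probes were called. Prkg1, the kinase activated by cyclic GMP, fell by 0.64 (adjusted p = 0.009276) and Pde1a by 0.72 (adjusted p = 0.0001393). Cnga4, another channel subunit, fell by 1.29 (adjusted p = 0.002193), and just 1 of the 4 Ttpa-/- arrays measured it. Mef2a, one of the MEF2 factors, rose by 0.76 (adjusted p = 2.955e-05). With the deficient diet in wild-type cerebellum, on the same slide, Prkg1 differed by -0.584 (adjusted p = 0.03685), just short of the fold threshold. Between genotypes on the deficient diet Prkg1 differed by -0.051 (adjusted p = 0.8668). Against wild-type mice on the same diet, where 4.96% of all probes were called, Cnga2 rose by 0.74 (adjusted p = 0.003227) and Cnga4 fell by 0.90 (adjusted p = 0.02768). This count of 2 was 0 with the normexp correction, 1 without array 3 of the Ttpa-/- group and 3 without array 4 of the wild-type group. No pathway gene was called with the deficient diet in wild-type mice of either region, with Ttpa loss on the deficient diet in the cortex, or with supplementation in either region. With 1 array left out each of these counts reached 1, except that with supplementation in the cortex, which reached 3 without array 4 of the deficient diet.

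**Figure D5:**
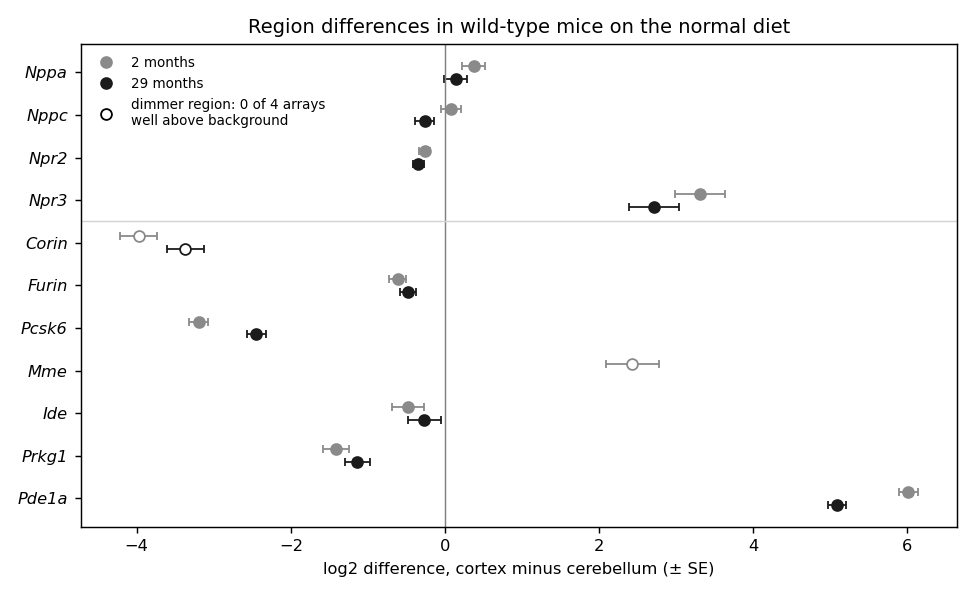
Log2 difference of cortex minus cerebellum (± SE) in wild-type mice on the normal diet at 2 and 29 months for 4 members and for 7 genes of peptide processing, degradation and cyclic GMP signalling; open points have 0 of 4 arrays above background in the dimmer region and their values are not bounds. Npr3 lies at 3.31 and 2.71, on the side opposite to Corin and Pcsk6.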

How the data were processed

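RNA of cortex and cerebellum was hybridised to 40 one-colour Agilent arrays. The authors deposited the scanner's spot tables, made per the file headers with Feature Extraction 10.7.3.1 (the submitters' notes name 10.1.1.1), whose processed signal is an intensity that is corrected for background within the array but not scaled across arrays. Other deposited columns are flags. A log2 table by the authors equalled the scaled log2 intensity after subtraction of the probe's mean over all arrays (median absolute difference 0.000973); it was used as an alternative.

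Flagged spots (95 to 148 per array) were left out, spots of a probe averaged, and the array's 75th percentile subtracted after taking log2. The 92 probes without a value on an array were dropped, leaving 55589. A probe counted as well above background where at least 50% of its spots did. Groups, taken from the labels, were compared with limma 3.58.1 in R 4.3.3, with data.table version 1.17.8, over all 40 arrays with 10 group coefficients, and Benjamini-Hochberg adjustment covered the probes measured on each of the 4 arrays in one or both groups compared. A call required an adjusted p under 0.05 and a fold over 1.5, and region differences an adjusted p under 0.05. A probe not above background on any array of a group gave a lower bound, the brighter group's mean over the higher of the dim probe's own signal and the lowest signal of a measured probe on each array. For simulated data the group means of each probe were first set equal, and 200 probes were then changed 2-fold. Of these, 164 (ageing, cortex, 28043 probes) and 158 (ageing, cerebellum, 30627 probes) were recovered. The direction was fixed by this construction and the error of group means is left out, so recovery in the measured data may differ.

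The members and the gene lists were chosen with earlier results of these data known. Named are all members, pathway genes called within a region with Ide, Mme, Corin and Furin, and the 5 genes closest to Ostn. Lists carry no set test. The labels number 4 samples per group, which the study describes as separate mice. The number of arrays, 4 per group, limits the precision.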

Additional observations from a re-analysis of the deposited data

Results flagged for a closer look

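Of 46 groups of 4 arrays in which a member was measured on every array, 4 held 1 array far from the other 3, by a gap beyond Dixon's critical value (95%) for 4 samples. Chance marks about 1 group in 20. The Ostn signal of -1.665 of array 3 in the wild-type deficient-diet cerebellum lay below the other 3 (gap 0.837 of the range). Nppc was high on array 2 in the Ttpa-/- deficient-diet cerebellum (0.27, gap 0.887) and, again on array 2, on the supplemented diet (0.183, gap 0.873). Npr2 was low on array 4 in the Ttpa-/- deficient-diet cerebellum (2.134, gap 0.953). The causes were not tested.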

How the results depend on the processing

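Of the counts of members and the Ostn differences, 113 values under other settings stayed within the limits set and 10 moved, with 1 array left out 161 stayed and 7 moved, and no direction turned. Without array 1 of the young cerebellum 1 member, Npr3, was called with age, so leaving out 1 array gave 0 to 1 members. That call rests on young arrays 2 and 3, which were not above background. With the methods' t-test, unadjusted, 1 member was called for the deficient diet in wild-type cerebellum. The single member called for Ttpa loss on the deficient diet in the cerebellum became 0 with quantile normalization, normexp, no filter on dim probes, only the groups compared, and the t-test after Benjamini-Hochberg, and 0 to 1 with 1 array left out. Without the filter 2 members were called between regions at 2 months and 2 at 29 months, the second being Npr1, measured on at most 1 of 4 arrays of any of these groups. The region difference in Ttpa loss had 1 member, Nppa, with quantile normalization, and 0 to 1 with 1 array left out. The Ostn difference with age was 2.253 with normexp. Counts of pathway genes called within a region moved by up to 2 with other settings and by up to 3 with 1 array left out. The causes were not tested. Slide as a block was not run, since each group lies on 1 slide. The labels do not say whether same-numbered arrays of the 2 regions came from the same mice, and the arrays were treated as unpaired. Between regions, same-numbered deviations correlated from -0.158 to 0.13 at 2 months (1 of 4 pairs over 0.1). At 29 months they correlated from -0.162 to 0.38 (3 of 4 pairs over 0.1), which does not settle the question. The comparisons within a region are between different mice. Over all 12 comparisons the range was -0.446 to 0.664, and in 0 were all pairs over 0.1. With the replicate number as a block, Npr3 in Ttpa loss on the deficient diet stayed at -1.001 (adjusted p = 0.03919), and no member's call changed, while 2 pathway genes instead of 1 were called with age in the cerebellum. Signals of Npr1, Nppb and young cerebellar Ostn lie at background, where a difference may be missed.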
